A study of Mus musculus with 4 samples.

Results

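Keratins are the intermediate filament proteins of epithelial cells. This account covers every reference gene whose name is Krt followed by digits only, which gave 50 genes among 54595 gene names present in all 4 expression tables. The rule uses names alone and no measured value. RNA was sequenced from colorectal tissue of germ-free mice, animals raised without microbes, at week 36 of a protocol of tumour induction in which azoxymethane (AOM), a carcinogen, was followed by 1% dextran sodium sulfate (DSS) in 3 cycles that damage the gut wall. The mice were wild type (WT) or Clec7a-/- (here KO), lacking Dectin-1, a receptor of myeloid cells for fungal beta-glucans, and both genotypes received AOM and DSS. Each genotype gave 1 library of polyps and 1 of tissue without polyps nearby, so the groups WT non-polyp, WT polyp, KO non-polyp and KO polyp held 1 library each.

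Every library was made from RNA pooled over several mice, and the sources differ on how many. Germ-free WT mice were bought and germ-free KO mice were derived by caesarean section, so genotype and origin of the animals cannot be told apart. The paper says in one place that germ-free KO mice had no polyps and elsewhere describes RNA from their polyps, so what tissue the library labelled KO polyp held is not certain. Levels are in TPM (a transcript abundance scaled to the library total), which takes transcript length into account, so that levels of different keratins can be set side by side. As every group is a single library, no replicate error and no p-value can be given. Here higher and lower mean a log2 ratio of TPM + 1 above 1 or below -1 between the libraries compared, the threshold of the study's methods, and each difference is one between pools.

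The levels of Clec7a matched the labels, with 5.97 TPM in WT non-polyp, 31.2 in WT polyp, 0.0766 in KO non-polyp and 0.102 in KO polyp libraries. The tables imply 2.73 to 2.79 gigabases of aligned sequence for 3 libraries, while for KO non-polyp tissue depth is unknown. All 10 listed genes of the colon lining, such as Cdx2 and Muc2, were above 1 TPM in every library. However, 8 of them were lower in WT polyps than in WT non-polyp tissue, where 3.67% of all named genes were. In KO against WT polyps 7 were higher, where 5.06% of all named genes were. They summed to 7861, 2890, 8663 and 7119 TPM in the order WT non-polyp, WT polyp, KO non-polyp, KO polyp. The geometric mean of 7 genes that all epithelial cells express was 390, 371, 375 and 311 TPM in that order. Smooth muscle genes moved with the tissue, as 6 of them summed to 3747, 281, 3668 and 1077 TPM in the same order. In the KO polyp library 6 leukocyte genes summed to 640.3 TPM, against 31.4 to 36.3 in the other libraries. Of these genes 5 were higher in KO than in WT polyps, where 5.06% of all named genes were, with Cd79a at 345 TPM in KO polyps. The myeloid gene Itgam was not, at 5.50 TPM in KO and 9.76 in WT polyps. Scaled to the 7 epithelial genes, the same 14 keratins were higher in WT polyps than in WT non-polyp tissue and the same 16 lower in KO than in WT polyps as described here; the part of muscle, leukocyte and colon lining content in these results was not tested.

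Keratins come in acidic type I and basic type II families, and a filament is built from pairs of 1 type I and 1 type II protein. Which pairs a cell makes follows its kind: Krt8 with Krt18, Krt19 or Krt20 in single-layered epithelia such as the gut lining, Krt5 with Krt14 or Krt15 in the basal layer of stratified squamous epithelia, Krt1 with Krt10 in the upper layers of skin, Krt4 with Krt13 in the upper layers of mouth, oesophagus and similar linings, and a separate set in hair and its root sheath. Pathologists use these pairs to name the origin of tumours. By textbook class, the 50 genes were 5 simple epithelial, 3 basal squamous, 11 suprabasal squamous, 3 activation-associated, 22 hair-type and 6 other keratins. Of all 50, 18 reached 5 TPM in at least 1 library, 6 others reached 1 TPM, and 26 stayed below 1 TPM everywhere, 10 of them listed at 0 in every library.

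**Figure D1:**
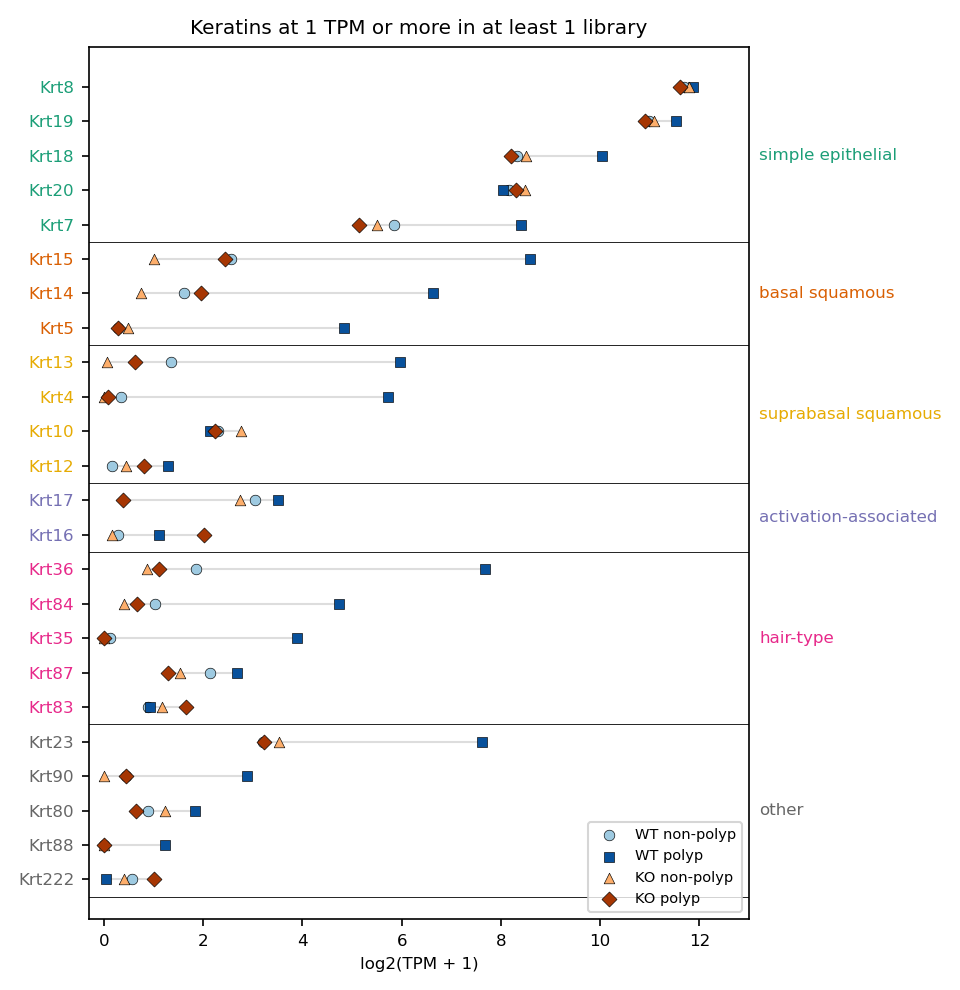
Level of each keratin that reached 1 TPM in at least 1 library, as log2(TPM + 1) on the horizontal axis, with 1 marker per library and the genes grouped by class. The WT polyp marker stands far to the right of the other 3 for Krt15 (383 TPM), Krt36 (204 TPM) and Krt23 (195 TPM), while the markers of Krt8 lie close together between 3112 and 3753 TPM.

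WT polyps differed from WT non-polyp tissue in the kinds of keratin they held. In WT polyps 14 of 50 keratins were higher and 0 lower, a share of 28.0% higher. Over all named genes 5.17% were higher and 3.67% lower in this comparison, and over protein-coding names 9.45% and 6.55%. The median log2 ratio over the 50 keratins was 0.09, since most were near 0 in both libraries, beside 0.00 over all genes. In the KO polyp library against WT polyps, 16 of 50 keratins were lower and 0 higher, where 4.29% of all named genes and 7.87% of protein-coding names were lower and 5.06% and 8.51% higher. The lower genes were Krt4, Krt5, Krt7, Krt13, Krt14, Krt15, Krt17, Krt18, Krt23, Krt35, Krt36, Krt80, Krt84, Krt87, Krt88 and Krt90. These comparisons share the WT polyp library and are not independent of each other.

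Simple epithelial keratins made up most keratin RNA everywhere, and here the libraries differed least. Krt8, the type II partner of the gut lining, stood at 3284 TPM in WT non-polyp, 3753 in WT polyp, 3527 in KO non-polyp and 3112 in KO polyp libraries. Krt19, a small type I keratin found in crypts and ducts, stood at 2009.6, 2937, 2175 and 1921 TPM in that order. The WT polyp library was the highest for both genes, but neither passed the threshold in any comparison. Krt20, a type I keratin of mature surface cells, stood at 286, 262, 356 and 316 TPM, the only simple keratin that was lowest in WT polyps.

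The 2 other simple keratins passed the threshold. Krt18, the main type I partner of Krt8, stood at 319 TPM in WT non-polyp, 1054 in WT polyp, 361 in KO non-polyp and 294 in KO polyp libraries, a log2 ratio of 1.72 for WT polyps against WT non-polyp tissue and -1.84 for KO against WT polyps. Krt7, which is typical of ducts and transitional linings, stood at 56.1, 336, 44.0 and 34.3 TPM, with log2 ratios of 2.56 and -3.26. For both genes the WT polyp library stood apart and the remaining 3 lay within 1 log2 unit of each other. Krt8 was 10.3 times as abundant as Krt18 in WT non-polyp tissue, 10.6 times in KO polyps and 9.77 times in KO non-polyp tissue, but 3.56 times in WT polyps. The sum over the simple class was 8343 TPM in WT polyps against 5955 TPM in WT non-polyp tissue, a log2 ratio of 0.49, which did not pass the threshold.

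All 3 basal squamous keratins were higher in WT polyps than in WT non-polyp tissue. Krt15, a type I keratin of basal keratinocytes and of hair follicle stem cells, stood at 4.90 TPM in WT non-polyp, 383 in WT polyp, 1.00 in KO non-polyp and 4.43 in KO polyp libraries. Its log2 ratio of 6.02 in WT polyps against WT non-polyp tissue ranked 3 of 54621 gene names, a 78.1-fold difference. Krt14, the classic basal type I keratin, stood at 2.07, 98.4, 0.678 and 2.89 TPM in the same order, 47.5 times higher in WT polyps than in WT non-polyp tissue. Krt5, their type II partner, stood at 0.221, 27.5, 0.397 and 0.220 TPM. WT polyps were the only library with any basal squamous keratin at 5 TPM or more, and against them KO polyps had log2 ratios of -6.14 for Krt15, -4.67 for Krt14 and -4.55 for Krt5.

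In these bulk samples, fewer cells of a type and less RNA per cell cannot be told apart, and in a pool it is not known how many animals carried the signal. The mean read depth over Krt15 was 465 reads per base in WT polyps, against 5.52 in WT non-polyp tissue and 4.94 in KO polyps. Over Krt5 it was 34.6, 0.287 and 0.274 reads per base, so that the low side of the Krt5 ratio rests on a few reads.

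Of the 11 suprabasal squamous keratins, the pair of internal linings stood out and the pair of skin did not. Krt4, the type II member, stood at 0.266 TPM in WT non-polyp and 52.1 in WT polyp libraries, stood at 0.0567 in KO polyps and was listed at 0 in KO non-polyp tissue. Krt13, its type I partner, stood at 1.55, 61.2, 0.0478 and 0.546 TPM. The log2 ratios of WT polyps against WT non-polyp tissue were 5.39 for Krt4 and 4.61 for Krt13. Krt10, the type I keratin of skin, stood at 3.90, 3.40, 5.76 and 3.74 TPM and passed no threshold. Its partner Krt1 had at most 0.0659 TPM, and Krt2 and Krt76 were listed at 0 in all 4. Krt12, known from the cornea, just passed the threshold as higher in WT polyps (1.46 against 0.126 TPM, log2 ratio 1.13), although 54.4% of its exon bases are also covered by the antisense gene A830036E02Rik.

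**Figure D2:**
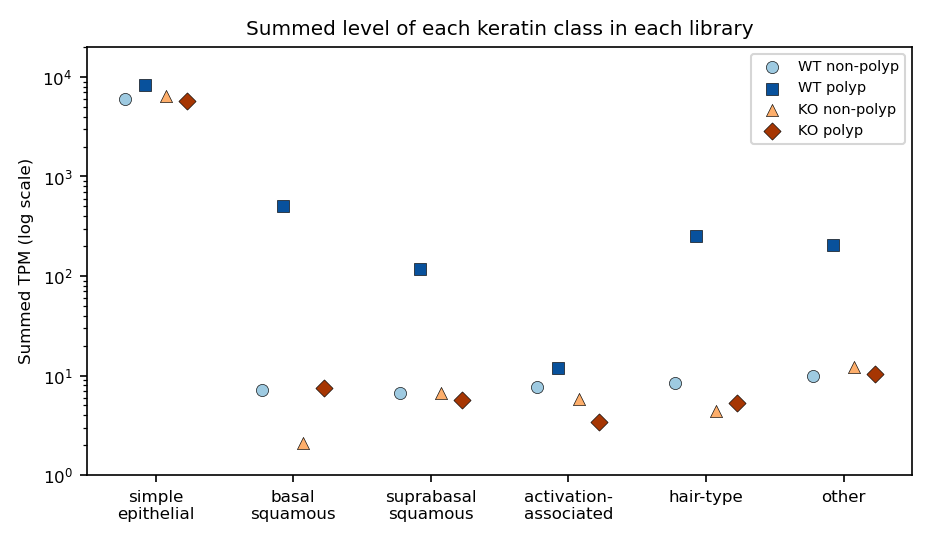
Summed TPM of the members of each keratin class on a log scale, with 1 marker per library. The WT polyp library holds 509 TPM of basal squamous, 119 of suprabasal squamous and 252 of hair-type keratins, each far above the other libraries (at most 7.54, 6.73 and 8.33 TPM), whereas the simple epithelial class lies between 5678 and 8343 TPM.

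Hair-type keratins were split. Of 22 genes, 4 reached 5 TPM, all in WT polyps, 1 other reached 1 TPM, and 17 stayed under 1 TPM, 8 of them listed at 0 in every library. Krt36, a type I keratin of hair and of the filiform papillae of the tongue, stood at 2.63 TPM in WT non-polyp, 204 in WT polyp, 0.819 in KO non-polyp and 1.17 in KO polyp libraries. The log2 ratio was 5.82 in WT polyps against WT non-polyp tissue, ranking 9 of 54621 names, and -6.56 for KO against WT polyps, ranking 13 from the lowest. Krt84, a type II keratin with a similar distribution in tongue and nail, stood at 1.04, 25.8, 0.329 and 0.579 TPM. Krt35, a type I keratin of the growing hair shaft, stood at 0.0940 and 13.8 TPM in the WT libraries and was listed at 0 in both KO libraries. These 3 genes were high in 1 library of the 4, as the basal and Krt4 and Krt13 genes were.

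Most other hair keratins were not detected or stayed near 0. Krt87 stood at 3.43, 5.39, 1.91 and 1.45 TPM and was called lower in KO against WT polyps (log2 ratio -1.38), but 36.9% of its 50-base words also occur in transcripts of other genes, Gm49425, Krt81, Krt86 and Krt83. Krt83 reached 2.13 TPM in KO polyps and 0.857 to 1.26 TPM elsewhere, with no call. Of the 8 keratins of the inner root sheath, Krt27 (0.0744 TPM in WT polyps) and Krt74 (0.0707 TPM in WT non-polyp tissue) were listed above 0 in 1 library each and Krt25, Krt26, Krt28, Krt71, Krt72 and Krt73 in none. The companion layer keratin Krt75 had 0.0256 TPM in WT polyps and was listed at 0 elsewhere.

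The activation-associated class, named for keratins such as Krt16 and Krt17 that keratinocytes make on wounding, showed no single pattern among its 3 members. Krt6a and Krt6b, which the naming rule leaves out, had 26.4 and 2.46 TPM in WT polyps and at most 0.0957 TPM elsewhere. Krt17 stood at 7.20 TPM in WT non-polyp, 10.4 in WT polyp, 5.68 in KO non-polyp and 0.298 in KO polyp libraries. It was thus the lowest in KO polyps, with a log2 ratio of -2.36 against KO non-polyp tissue and -3.13 against WT polyps. Krt16 stood at 0.222, 1.17, 0.112 and 3.04 TPM, highest in KO polyps, where it passed the threshold against KO non-polyp tissue (log2 ratio 1.86) but not against WT polyps (0.90). Krt16 shares 37.6% of its 50-base words with other transcripts, those of the predicted gene Gm11597, Krt14 and Krt17, and its low level is uncertain. Krt42, a mouse keratin of this chromosomal neighbourhood, stayed at or below 0.318 TPM.

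Among the 6 keratins outside these classes, Krt23 differed most between WT polyps and WT non-polyp tissue. Krt23, a type I keratin known from stressed liver and from colon tumour cells, stood at 8.22 TPM in WT non-polyp, 195 in WT polyp, 10.5 in KO non-polyp and 8.30 in KO polyp libraries, a log2 ratio of 4.41 in WT polyps against WT non-polyp tissue. The 3 libraries other than WT polyp differed by 1.27-fold at most. Krt90 stood at 0.367, 6.33 and 0.369 TPM in WT non-polyp, WT polyp and KO polyp libraries and was listed at 0 in KO non-polyp tissue. Krt88 was listed at 0 except in WT polyps (1.33 TPM). Krt80, found in many epithelia, stood at 0.848, 2.57, 1.35 and 0.557 TPM and just missed the threshold in WT polyps against WT non-polyp tissue (0.949, beside 0.951 for Krt32), but passed it in KO against WT polyps (-1.20). Krt222, a short keratin-like gene, had the opposite order, with 0.482, 0.0365, 0.319 and 1.03 TPM in WT non-polyp, WT polyp, KO non-polyp and KO polyp libraries. It just missed the threshold as higher in KO than in WT polyps (log2 ratio 0.97) and passed it with a pseudocount of 0.1 TPM, with rescaling over shared names and with epithelial scaling. Krt24 had at most 0.0390 TPM.

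Classes together, keratins other than the simple ones made up 11.6% of keratin TPM in WT polyps, against 0.663% in WT non-polyp tissue, 0.564% in KO polyps and 0.479% in KO non-polyp tissue. Their sum was 1097 TPM in WT polyps and 39.7, 31.1 and 32.2 TPM in the others. Basal squamous keratins took 5.39% of WT polyp keratin TPM, hair-type keratins 2.67%, the other class 2.18% and suprabasal squamous keratins 1.26%. Krt15 alone amounted to 10.2% of the Krt8 level in WT polyps and to 0.149%, 0.0285% and 0.142% in WT non-polyp, KO non-polyp and KO polyp libraries.

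The balance of the filament types shifted with them. Over all 50 genes, 26 of type I and 24 of type II, the ratio of type I to type II TPM was 0.79 in WT non-polyp, 0.816 in KO non-polyp and 0.811 in KO polyp libraries, and 1.24 in WT polyps. Within the simple class it was 0.783, 0.81 and 0.804 in those 3 libraries and 1.04 in WT polyps, where Krt18 and Krt19 together exceeded Krt8. Outside the simple class type I exceeded type II in all 4 libraries, by 4.04, 4.39 and 4.40 times in WT non-polyp, KO non-polyp and KO polyp tissue and by 7.96 times in WT polyps, with 975 TPM of type I beside 122 TPM of type II. The naming rule leaves the type II genes Krt6a and Krt6b out of these sums (26.4 and 2.46 TPM in WT polyps). It also leaves out the type I genes Krt33a and Krt33b (0 and 0.222 TPM there). RNA levels do not give the protein balance, which was not measured.

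**Figure D3:**
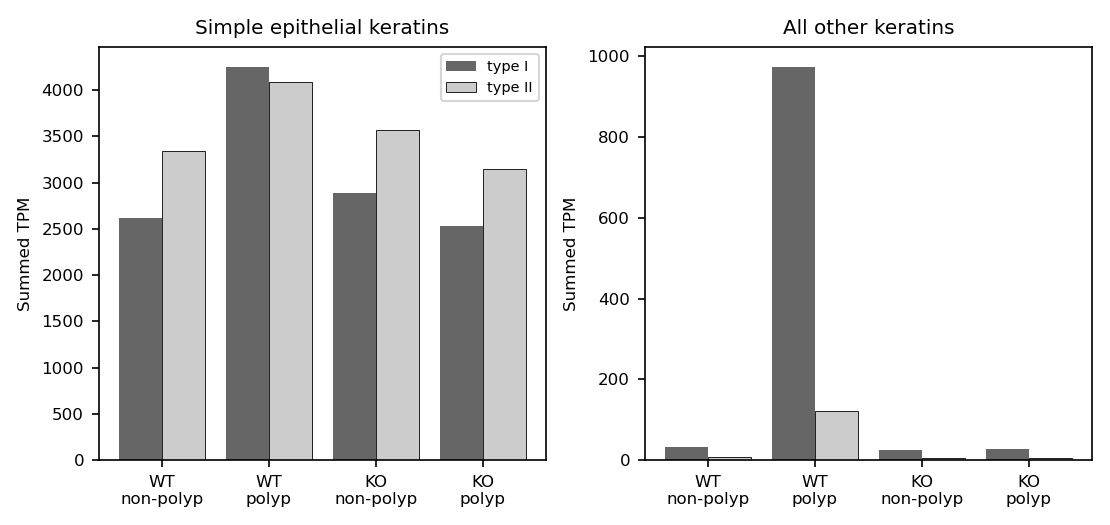
Summed TPM of type I and type II keratins in each library, for the 5 simple epithelial keratins and for the other 45 keratins, both axes starting at 0. Type II exceeds type I among simple keratins in 3 libraries but not in WT polyps (4253 TPM of type I, 4089 of type II), and the other keratins are visible mainly as type I RNA in WT polyps.

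Keratin genes lie in 2 clusters, which allows their changes to be read along the chromosome. On GRCm38, 25 type I genes lie on chromosome 11 between 99232761 and 100269871, and all 24 type II genes lie with the type I gene Krt18 on chromosome 15 between 101347444 and 102032027. Krt35, Krt36, Krt13 and Krt15 are consecutive members on chromosome 11 (Krt36 at 100102007 to 100105626, Krt15 at 100131758 to 100135928, both on the minus strand) and were all higher in WT polyps. Krt19 and Krt9 follow, Krt19 with a log2 ratio of 0.55 and Krt9 listed at 0 in both WT libraries, and then Krt14 (100203162 to 100207548) at 5.02. Krt31 and Krt34, on the other side of Krt32, were below 0.5 TPM in all 4 libraries. On chromosome 15 none of the higher genes, Krt7, Krt88, Krt84, Krt90, Krt5, Krt4 and Krt18, was next to another of them among the members. Krt4 (101918535 to 101924735) lies between Krt76 and Krt79, which had at most 0.163 TPM in any library. Between the members Krt75 and Krt5 (101707070 to 101712898) lie Krt6b and Krt6a, which the naming rule leaves out and which were also higher in WT polyps than in WT non-polyp tissue (log2 ratios 1.79 and 4.64).

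**Figure D4:**
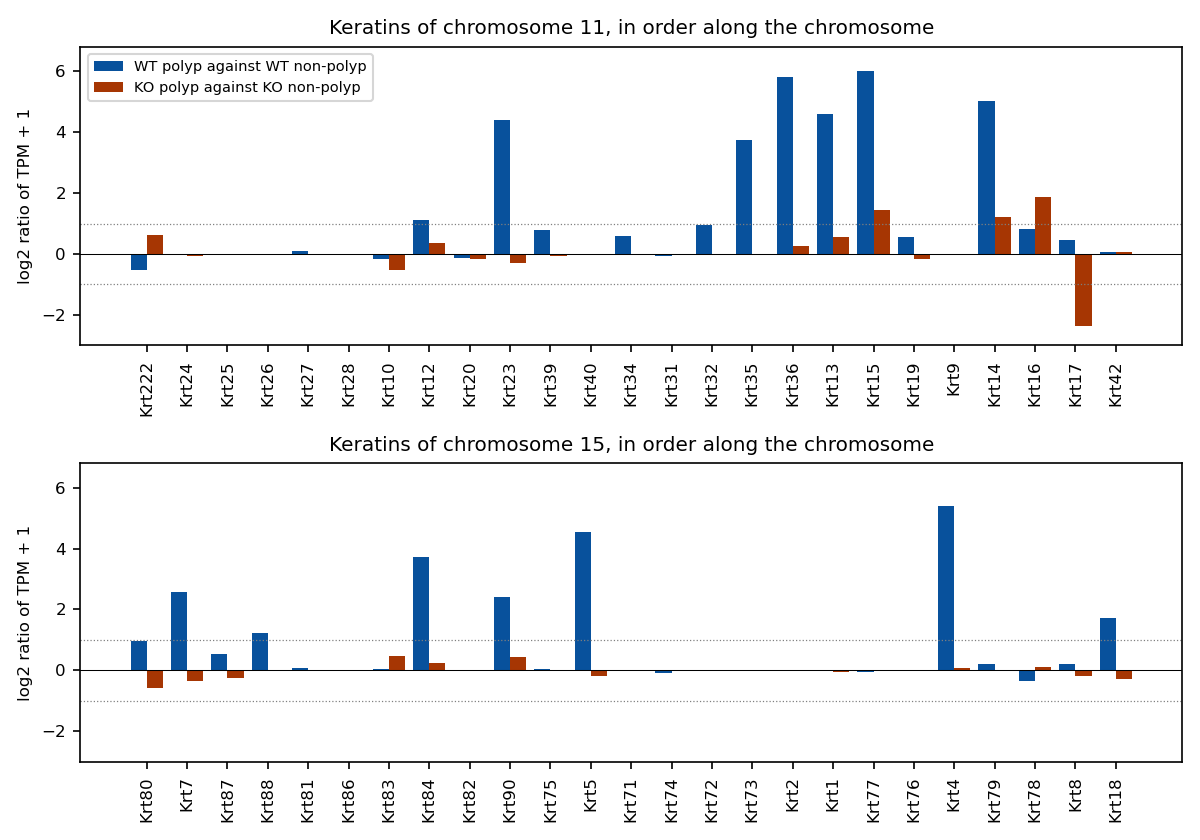
Log2 ratio of TPM + 1 for polyps against non-polyp tissue, in WT and in KO mice, for every keratin in its order along chromosomes 11 and 15; dotted lines mark the threshold of 1 in either direction. WT bars reach 5.82 for Krt36 and 6.02 for Krt15, and the only KO bars past the threshold are Krt14, Krt15 and Krt16 above and Krt17 below.

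Promoter sequences from RefSeq (GRCm38.p6) were matched for 35 of the 50 keratins. They are shown for 5 keratins that were higher in WT polyps and for Krt8, which was not, as the 100 bases before a RefSeq start site. Each reads 5′ to 3′ along the gene, and the capitals mark the letters ATAAAA, which resemble a TATA box, on either strand. All lie on the minus strand, Krt36 at chr11:100105627-100105726, Krt84 at chr15:101532821-101532920, Krt13 at chr11:100121567-100121666, Krt5 at chr15:101712906-101713005, Krt23 at chr11:99493121-99493220 and Krt8 at chr15:102004343-102004442. In the annotation of the expression values, Krt8 starts at 102004482 and Krt23 at 99493137. By that annotation the Krt8 window lies inside the gene, not before it, and the Krt23 window overlaps the start of its gene.
Krt36: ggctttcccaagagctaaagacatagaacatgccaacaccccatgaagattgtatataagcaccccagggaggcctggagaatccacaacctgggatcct
Krt84: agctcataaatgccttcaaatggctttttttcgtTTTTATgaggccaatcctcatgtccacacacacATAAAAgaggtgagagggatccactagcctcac
Krt13: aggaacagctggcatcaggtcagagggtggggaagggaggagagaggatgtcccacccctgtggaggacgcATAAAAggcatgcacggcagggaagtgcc
Krt5: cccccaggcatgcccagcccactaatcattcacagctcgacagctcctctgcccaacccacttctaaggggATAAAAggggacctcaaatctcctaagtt
Krt23: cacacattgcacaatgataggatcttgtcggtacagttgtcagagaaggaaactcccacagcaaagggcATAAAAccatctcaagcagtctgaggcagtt
Krt8: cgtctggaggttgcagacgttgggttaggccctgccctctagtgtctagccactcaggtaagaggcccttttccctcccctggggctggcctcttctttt

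In these windows ATAAAA occurs in 15 of the 35 keratins on either strand and in 7.07% of all 32851 promoters of the table. TATAAA, which overlaps it in the run TATAAAA, occurs in 14 of the 35 keratins and in 5.56% of all promoters. Krt25, Krt26, Krt28 and Krt40, listed at 0 in every library, hold both. Of the keratins higher in WT polyps, Krt5, Krt7, Krt13, Krt23 and Krt84 hold ATAAAA there and Krt12 holds TATAAA. The rest of these higher keratins hold neither there or had no matched promoter. TGANTCA, the core letters bound by AP-1, occurs in Krt13 alone among the 35 and in 2.73% of all promoters, and that match lies before another Krt13 start in the table, not in the window printed. A match is a description of the letters and says nothing of use. Other letters were not searched, and the Krt36 window, which has no capitals, holds the similar run tatataag.

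A textbook list, chosen with earlier results of these data known, held 25 genes that accompany squamous keratins, Krt6a and Krt6b among them. In WT polyps against WT non-polyp tissue, 14 were higher and 1 lower (median log2 ratio 1.36), and in KO against WT polyps 2 were higher and 12 lower (median -0.74). Over all named genes, 5.17% were higher and 3.67% lower in the first comparison, and 5.06% and 4.29% in the second. Krt6a, a type II partner of Krt16 and Krt17 that the naming rule leaves out, had 26.4 TPM in WT polyps, against 0.0957 in WT non-polyp tissue, and was listed at 0 in both KO libraries. The desmosomal cadherin Dsg3 had 6.46 TPM in WT polyps and at most 0.0981 elsewhere. Sprr1a and Lor, of the cornified envelope, stood at 53.9 and 12.4 TPM in WT polyps and at no more than 8.33 and 1.40 TPM in the other libraries. Anxa8 and Tgm1 stood at 338 and 10.7 TPM in WT polyps, against 42.3 and 0.550 TPM in WT non-polyp tissue. Both were also higher in KO polyps than in KO non-polyp tissue (log2 ratios 1.39 and 1.84). In that comparison 4 of the 25 genes were higher and 0 lower, where 3.29% of all named genes were higher and 0.989% lower.

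Some other members of that list stayed under 1 TPM or were not highest in WT polyps. Trp63, the transcription factor that directs stratified epithelia, stood at 0.125 TPM in WT polyps and at 0.0135 TPM or less in the other libraries, beside 383 TPM of Krt15. Ivl, Sprr1b, Sprr3 and Krtdap, products of terminal squamous differentiation, had at most 0.537 TPM in any library. Like Trp63, Ivl was highest in WT polyps, at 0.360 TPM. Tgm3 stood at 497, 26.1, 641 and 450 TPM in WT non-polyp, WT polyp, KO non-polyp and KO polyp tissue, lowest where the squamous keratins were highest. Ly6d, also made by lymphoid cells, was higher in WT polyps than in WT non-polyp tissue (78.0 against 17.0 TPM). It was highest in KO polyps, at 255 TPM.

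Hair follicle partners were mostly low. Of 8 listed genes 2 were higher in WT polyps: the hair desmoglein Dsg4 at 9.41 TPM against 0.161, and Foxn1, a transcription factor of hair and thymus epithelium, at 5.08 against 0.580 TPM. Hoxc13, a regulator of hair keratin genes, was listed at 0 in all 4 libraries, as was Krt33a. Of 10 desmosome and filament anchor genes of epithelia in general, 1 was higher in WT polyps, the plakin Ppl (30.2 against 6.04 TPM), and 1 lower, Eppk1 (3.80 against 8.66 TPM). Over all named genes, 5.17% were higher and 3.67% lower in WT polyps than in WT non-polyp tissue.

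**Figure D5:**
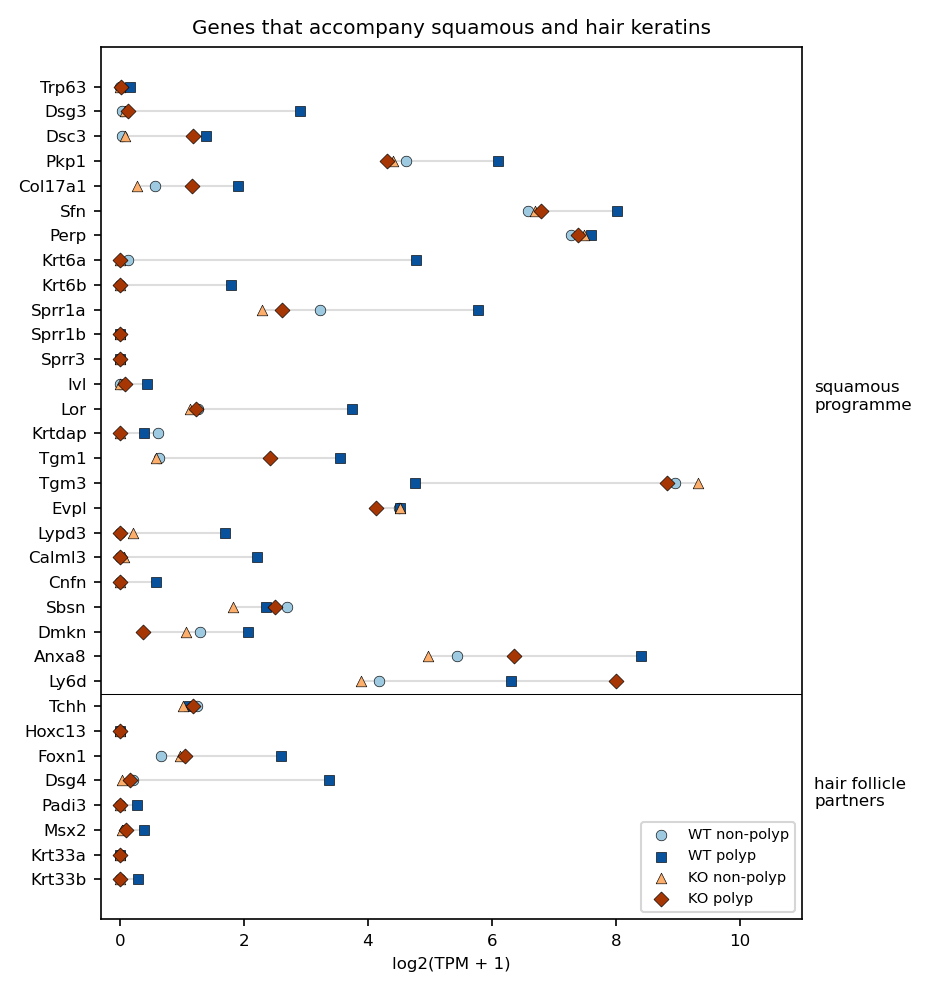
Level of 25 genes of the squamous programme and 8 partners of hair keratins as log2(TPM + 1), with 1 marker per library. The WT polyp marker stands apart on the right for Krt6a (26.4 TPM), Dsg3 and Dsg4, Trp63 lies near 0 in every library, and Tgm3 is lowest in WT polyps at 26.1 TPM.

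Few keratins differed between the library labelled KO polyp and KO non-polyp tissue. Of 50 genes 3 were higher in KO polyps (6.0%, where 3.29% of all named genes and 5.51% of protein-coding names were) and 1 lower (2.0%, where 0.989% and 1.55% were). The higher ones were Krt15, Krt14 and Krt16, with log2 ratios of 1.44, 1.21 and 1.86 and no more than 4.43 TPM in any KO library, and the lower one was Krt17. With a pseudocount of 5 TPM none of the 3 was called higher.

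Few also differed between the genotypes in tissue without polyps. Of 50 keratins 2 were lower in KO than in WT non-polyp tissue and 0 higher, a share of 4.0% lower, while 0.636% of all named genes were lower and 0.76% higher, and 0.861% and 0.636% of protein-coding names. The lower genes were Krt15 (1.00 against 4.90 TPM, log2 ratio -1.56) and Krt13 (0.0478 against 1.55 TPM, -1.28), and Krt36 just missed the threshold (-0.997) but passed it with TPM rescaled over shared names (-1.08), median-of-ratios scaling (-1.03) or a pseudocount of 0.1 TPM (-1.57). With a pseudocount of 5 TPM neither was called. Simple keratins lay within 1.28-fold between these libraries, Krt8 at 3527 and 3284 TPM.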

How the data were processed

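Per the paper's methods, reads of 4 libraries were trimmed with Trimmomatic, aligned to GRCm38 (mm10) with HISAT2 and assembled with StringTie in Galaxy by the authors; versions and the annotation release are not given in the sources used here. The deposited values used are TPM of reference genes. In 3 tables the deposited TPM column also lists assembled loci that overlap the genes and alone sum to 1000000, so its whole column was treated as a score and only reference genes, which sum to 860905 to 906199 TPM, were used. Per the file headers, these 3 tables hold FPKM and a coverage signal (mean read depth per base). The KO non-polyp table holds TPM and a ratio to the Gapdh level that the authors added and that was not used.

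Names turned into dates by spreadsheet software (27 per fuller table) were restored from gene identifiers, and TPM was summed per name. Log2 ratios of TPM + 1 were taken over all names, with the study's threshold of 1 and no test, since each group has 1 library. Read counts are not given, so no counting interval is given. Shared sequence was measured as the share of 50-base words of a keratin's longest coding transcript (GENCODE M21, GRCm38) found in transcripts of other genes. The text gives 4 values for keratins at 5 TPM or more in any library, and names others where they pass or mark the threshold; a few more low keratins were named after their values were seen. Keratin classes, lists and members were chosen with earlier results of these data known. A further keratin of the class list, Krt85, was not analysed here. Python 3.11.15, pandas 2.3.3, numpy 2.4.6 and matplotlib 3.10.9 were used.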

Additional observations from a re-analysis of the deposited data

Results flagged for a closer look

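In 5 keratins at 5 TPM or more, the log2 ratio of polyps to non-polyp tissue had opposite signs in the 2 genotypes, but in each of them only 1 of the ratios passed the threshold, so the sign of the other is no call. With epithelial scaling the KO ratios of Krt7, Krt18 and Krt23 were -0.09, -0.03 and -0.06. The difference was not tested, since 1 library per group leaves no residual error. The KO log2 ratio minus the WT log2 ratio was -4.74 for Krt5 (-0.20 in KO, 4.54 in WT), -4.71 for Krt23 (-0.30 and 4.41) and -2.91 for Krt7 (-0.35 and 2.56). It was -2.83 for Krt17 (-2.36 and 0.47) and -2.02 for Krt18 (-0.30 and 1.72). Only for Krt17 was the KO ratio the one past the threshold.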

How the results depend on the processing

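No paired analysis was possible because each group holds 1 library, and for the same reason no library could be left out. The calls of WT polyps against WT non-polyp tissue and of KO against WT polyps changed little: 12 to 20 keratins higher in WT polyps and 13 to 21 lower in KO polyps over all alternatives, and 14 and 16 with scaling to epithelial genes, the same genes as in the report. With a pseudocount of 0.1 TPM, 3 keratins were higher in KO than WT polyps, 1 lower in WT polyps than WT non-polyp tissue, 1 higher and 8 lower in KO than WT non-polyp tissue, and 6 higher and 2 lower in KO polyps than KO non-polyp tissue. Also higher in KO than WT polyps was 1 keratin with rescaling over shared names and 2 with epithelial scaling, Krt222 in both. With a pseudocount of 5 TPM or a minimum of 5 TPM, 0 were lower in KO than WT non-polyp tissue and 0 higher in KO polyps than KO non-polyp tissue. The summed basal squamous class then gave -0.78 and 0.83 with the pseudocount, in place of -1.41 and 1.47. No called value reversed. FPKM could be used for 3 libraries only. The median log2 ratio of names at 1 TPM or more was 0.21 in WT polyps against WT non-polyp tissue, and 0.06 with median-of-ratios scaling, under which the same 14 keratins were higher. Epithelial scaling moved it from -0.05 to 0.18 in KO against WT polyps and from 0.04 to 0.28 in KO polyps against KO non-polyp tissue. Ratios of keratins near 0 rest on few reads.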

Other observations

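Of 8 intermediate filament genes of other cell types, 6 were lower and 2 higher in WT polyps than in WT non-polyp tissue. Over all named genes, 3.67% were lower and 5.17% higher in this comparison. Desmin (Des), of muscle, stood at 695, 13.3, 561 and 125 TPM in WT non-polyp, WT polyp, KO non-polyp and KO polyp libraries, and Prph, of enteric neurons, at 20.6, 0.596, 13.7 and 1.58 TPM. The higher genes were vimentin (Vim, 447 against 153 TPM) and Nes (7.09 against 2.52 TPM).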
